A study of Homo sapiens with 6 samples.

Results

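The collagen chain genes are the rows of the count table whose gene symbol has the form COL, a type number, A and a chain number. There were 44 such genes among the 62703 rows, each found once: 11 fibrillar chains, 8 chains of basement membranes and 25 others. They were measured by RNA sequencing in A549, a widely used cell line from a human lung adenocarcinoma, grown in AlgLung hydrogel (3 libraries) or in S-AlgLung hydrogel (3 libraries). All 6 libraries come from this line, which had been kept in DMEM/F12 medium with serum before the gels, and the labels name no other agent. The labels do not say what the S stands for, what the gels are made of or how long the cells were in them. The series title concerns sulfation of the extracellular matrix. Whether replicates were separate cultures is not stated, so p-values reflect no more than how these libraries vary, and that variation may be technical.

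Collagens are secreted proteins whose chains wind around each other in threes to form a rope-like helix, and each type is built from a fixed set of chains. Fibrillar collagens assemble into the cross-striated fibrils that give tissue its tensile strength. Type IV collagen forms the sheet-like network of basement membranes, on which epithelial cells such as those of the lung rest. Other collagens form beaded filaments, bind to the surface of fibrils, anchor the epithelium to the stroma or span the cell membrane.

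Total counts per library ran from 22978408 to 26495444. The second principal component of all tested genes, with 28.9% of the variance, set S-AlgLung replicate 3 apart (49.2) from the other S-AlgLung libraries (-20.2 and -33.4). Of 6 fibroblast markers, 1 was expressed (THY1), and the 6 summed to 1.98 to 2.79 CPM (counts scaled to a common library total) in AlgLung and 1.28 to 2.45 CPM in S-AlgLung, with DCN and FAP at 0 in all AlgLung libraries. The 6 endothelial markers, 2 of them expressed, summed to 2.47 to 3.72 and 3.04 to 3.76 CPM. The 6 immune markers, of which CD14 alone was expressed, summed to 30.9 to 38.1 and 44.3 to 71.3 CPM. The 6 epithelial markers were all expressed and summed to 10586 to 13964 CPM in AlgLung and 4608 to 12313 CPM in S-AlgLung, nearly all of it keratin. The epithelial adhesion gene EPCAM, by contrast, had a mean of 2.88 CPM over the 6 libraries. It was at 2.34, 1.53 and 1.98 CPM in AlgLung and 2.99, 3.08 and 5.39 CPM in S-AlgLung. These EPCAM values did not overlap, but the gene was not called (log2 fold change 0.97, edgeR adjusted p = 0.073). Of the 24 markers 2 were called: KRT7 fell from 650.2 ± 100.7 to 240.5 ± 83.6 CPM (mean ± SD, n = 3, log2 fold change -1.43, edgeR adjusted p = 0.00124) and CD14 rose (0.85, adjusted p = 0.0225), with no overlap between the hydrogels in either. KRT7 shares 282 exon bases with KRT7-AS on the other strand, which had 31.2% of its counts. The part of these marker differences in the results was not tested.

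Of the 44 collagen chain genes, 21 were expressed, meaning that they reached 1 CPM in at least 3 libraries (the totals are adjusted for composition by TMM factors). They were 6 of 11 fibrillar, 6 of 8 basement membrane and 9 of 25 other chains. In 20 of them every library was at 1 CPM or more. The gene just inside the limit was COL26A1, a chain of an unusual secreted collagen, with 4 libraries at 1 CPM or more and a range of 0.744 to 2.17 CPM. The gene just outside was COL11A2, a fibrillar chain of cartilage, with 1 library at that level and a range of 0.207 to 1.03 CPM. No chain came in through the libraries of a hydrogel alone.

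Several chains known from stroma and cartilage were close to absent. COL1A2, the partner of COL1A1 in type I collagen, had 9 counts in all 6 libraries together, COL2A1, the main chain of cartilage fibrils, had 11, and COL6A3, the long chain of type VI collagen, had 8. COL4A1, the most widespread chain of basement membranes, had 29. COL8A1, COL6A5, COL6A6, COL19A1 and COL25A1 had 0 counts, which allows at most 0.106 to 0.136 CPM per library (the level of 3 counts, for counting error only). The other chains below the limit, COL9A1, COL9A2, COL9A3, COL5A3, COL24A1, COL22A1, COL13A1, COL14A1, COL8A2, COL10A1, COL20A1, COL23A1 and COL15A1, stayed at or under 0.719 CPM in each library.

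**Figure D1:**
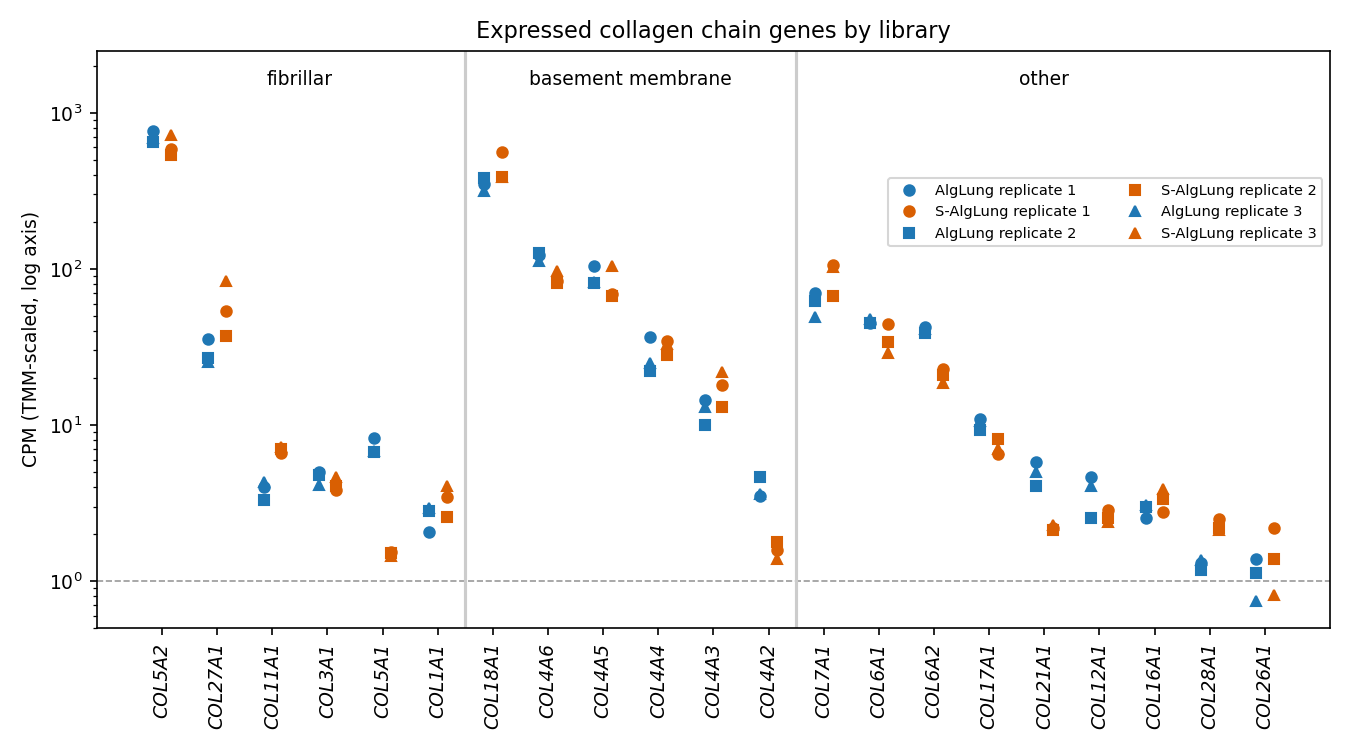
Level of each of the 21 expressed collagen chain genes in CPM (TMM-scaled, log axis), by class; blue points are the 3 AlgLung and orange points the 3 S-AlgLung libraries, and the dashed line marks 1 CPM. COL5A2 and COL18A1 stand above all other chains in both hydrogels, and COL5A1 and COL4A2 show the widest gaps between the groups.

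The collagen transcripts of these cells were mostly those of COL5A2 and COL18A1. Levels between genes are compared as CPM per kilobase of exon, using the summed exon length in the deposited table, which counts every annotated exon and so understates genes with long alternative exons. On that scale COL5A2, a chain of type V collagen, stood at 96.1 ± 7.98 in AlgLung and 84.0 ± 12.5 in S-AlgLung (mean ± SD, n = 3 here and below). COL18A1, the core chain of a basement membrane heparan sulfate proteoglycan whose C-terminal fragment is endostatin, followed at 41.2 ± 3.75 and 52.7 ± 11.8. Next came COL4A6 at 13.0 ± 0.844 and 9.39 ± 0.909 per kilobase. In AlgLung, COL6A1 (8.30 ± 0.291), COL6A2 (7.64 ± 0.346) and COL4A5 (7.54 ± 1.08) did not differ from each other beyond about the spread of COL4A5. COL7A1 was at 5.45 ± 0.950 there and COL4A4 came next at 2.37 ± 0.640.

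The total of collagen transcripts was nearly equal in the hydrogels. The 44 chains summed to 1528 ± 98.2 CPM in AlgLung and 1524 ± 180.3 CPM in S-AlgLung, or 0.159% ± 0.0192 and 0.148% ± 0.0307 of all counts. Of the summed level per kilobase, COL5A2 held 51.5%, 48.0% and 51.8% in the AlgLung libraries and 40.9%, 45.6% and 49.8% in the S-AlgLung libraries, so the groups overlapped. COL18A1 held 20.3%, 24.2% and 20.5% in AlgLung and 33.7%, 28.5% and 23.3% in S-AlgLung, also with overlap. The type IV chains together held 12.7% ± 0.360 in AlgLung and 11.0% ± 1.17 in S-AlgLung.

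**Figure D2:**
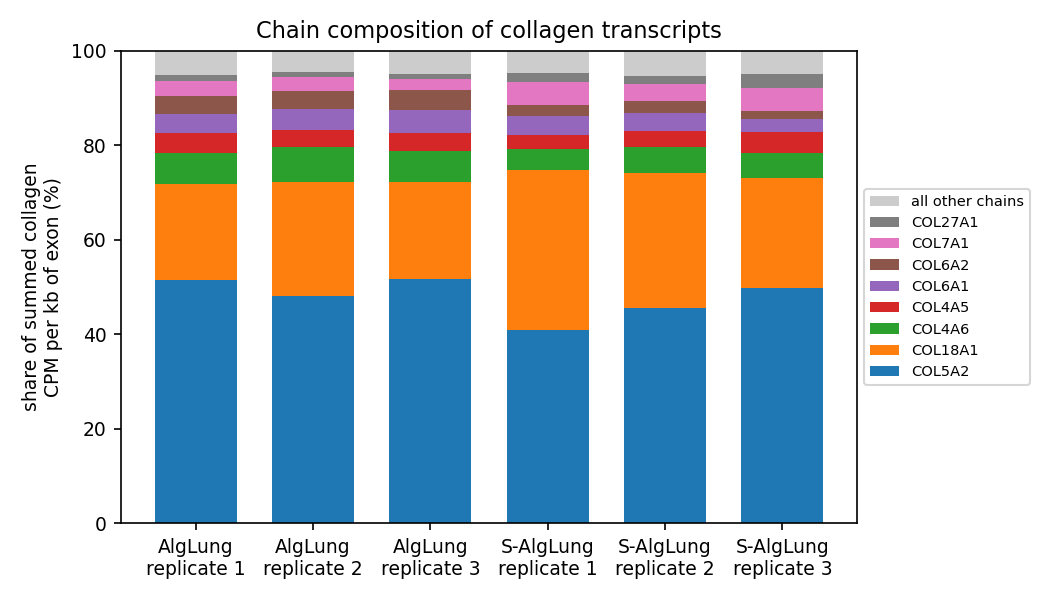
Share of each chain in the summed collagen level (CPM per kilobase of exon, in percent) for each of the 6 libraries; colours are chains, and the light grey segment is the sum of all chains not listed. COL5A2 makes up 40.9% to 51.8% and COL18A1 20.3% to 33.7% of the sum.

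Setting S-AlgLung against AlgLung asks which of these genes differ in expression between the gels. COL5A1, COL4A2, COL21A1 and COL6A2 fell in S-AlgLung, and COL27A1 and COL11A1 rose. Of the 44 chains, 23 had enough counts to test, and edgeR's quasi-likelihood test called 6 of the 23 (26.1%) at an adjusted p under 0.05, against 5.14% of all 18544 tested genes. The 4 lower chains were 17.4% of those tested, against 1.99% of all genes lower, and the 2 higher chains were 8.7%, against 3.15% of all genes higher. The values of the hydrogels did not overlap in 11 of the 23 chains (47.8%), against 18.4% of all tested genes. Of these 11, 4 were higher and 7 lower, against 10.4% and 8.06% of all genes. Chains went in both directions: the median log2 fold change (S-AlgLung minus AlgLung) was 0.18 over the 23 chains and 0.03 over all tested genes. Over the 21 chains with a mean of at least 1 CPM that median was -0.14. Higher calls were the less stable: none remained without AlgLung replicate 2 (1.61% of all genes higher there), without AlgLung replicate 3 (1.71%), with total-count scaling (1.8%) or at an adjusted p under 0.01 (1.74%). Leaving out AlgLung replicate 1 kept 1 (1.52%), and so did leaving out S-AlgLung replicate 1 (2.22%) or 2 (3.75%), upper-quartile factors (3.17%) and limma-voom (2.67%). Lower calls numbered 3 without AlgLung replicate 2 (1.28% of all genes lower) and 4 with any other library left out. In bulk RNA, fewer cells that express a gene and less RNA per cell cannot be told apart.

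**Figure D3:**
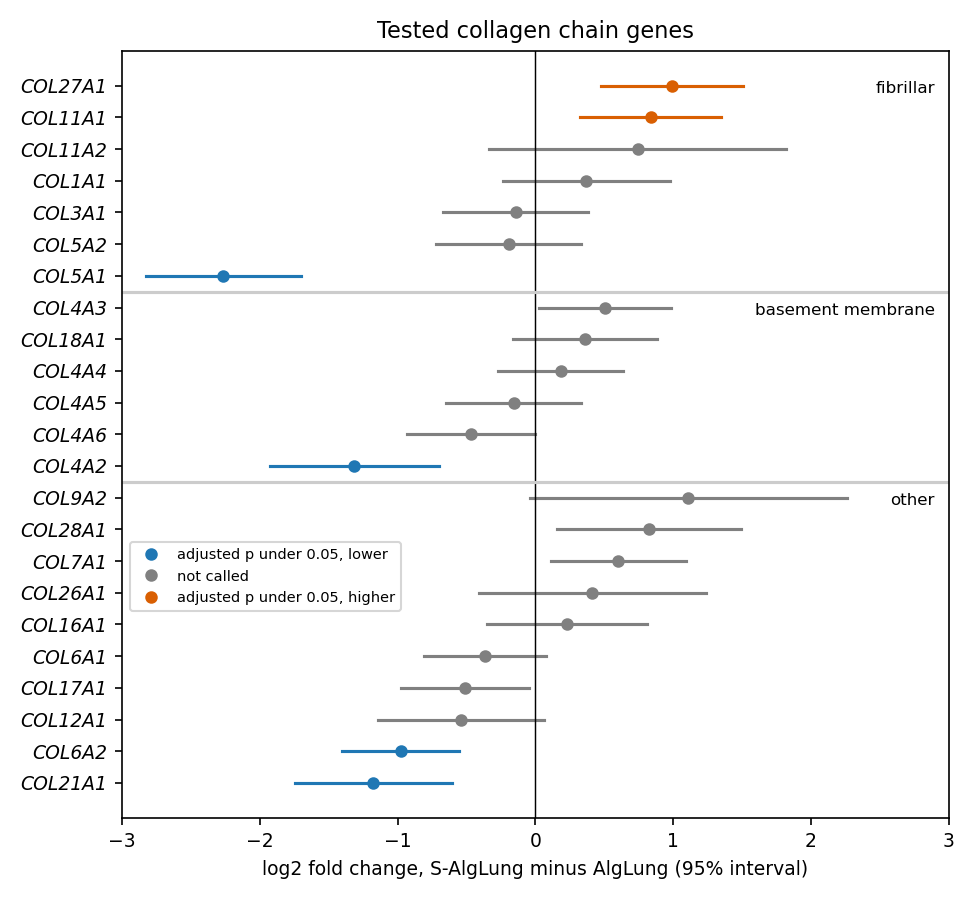
Log2 fold change of the 23 tested collagen chain genes (S-AlgLung minus AlgLung, x axis) with its 95% interval, which is not adjusted for the number of genes, grouped by class; blue marks called lower, orange called higher and grey not called. Each class holds chains on both sides of 0, and COL5A1 lies farthest from 0, at -2.26.

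Among the fibrillar chains, COL5A1 fell and COL27A1 and COL11A1 rose, while the other 4 tested were not called. COL5A1 (ENSG00000130635, chromosome 9, 134641803 to 134844843, GRCh38) encodes the chain that, with COL5A2, makes type V collagen, which lies inside type I fibrils and limits their width. Its level was 8.23, 6.69 and 6.78 CPM in the AlgLung libraries and 1.54, 1.52 and 1.45 CPM in the S-AlgLung libraries. Every S-AlgLung library was thus far below every AlgLung library, and the S-AlgLung values lay close together (SD 0.0445 CPM). It was 4.80-fold lower (log2 fold change -2.26, SE 0.28, edgeR adjusted p = 3.333e-06), and it was called in each of 14 other settings, with log2 fold changes of -2.37 to -2.21.

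COL5A2 (chromosome 2, 189031898 to 189225312), its partner, was at 766.8, 651.7 and 691.7 CPM in AlgLung and 589.1, 538.6 and 716.2 CPM in S-AlgLung. The groups overlapped, S-AlgLung replicate 3 lying among the AlgLung values, and the difference was -0.19 on the log2 scale (95% interval -0.72 to 0.33, adjusted p = 0.826). Per kilobase, COL5A2 exceeded COL5A1 by 7.15, 7.21 and 7.28 on the log2 scale in AlgLung and by 9.19, 9.08 and 9.55 in S-AlgLung. The ratio was 148.6 in AlgLung and 618.7 in S-AlgLung (geometric means), with no overlap between the hydrogels. These ratios were not tested.

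COL27A1 (ENSG00000196739, chromosome 9, 114155537 to 114312511), a fibrillar chain of cartilage with a shortened helix, was at 35.3, 26.9 and 25.5 CPM in AlgLung and 53.7, 37.1 and 83.1 CPM in S-AlgLung. All S-AlgLung values were above all AlgLung values, but they spread widely, with S-AlgLung replicate 3 highest. The rise was 1.98-fold (log2 fold change 0.99, SE 0.25, edgeR adjusted p = 0.0148). Without S-AlgLung replicate 3 it was still called, at 0.60 (adjusted p = 0.0434). Total-count scaling ended the call (adjusted p = 0.0767), as did leaving out AlgLung replicate 2 (0.148) or 3 (0.136).

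COL11A1 (ENSG00000060718, chromosome 1, 102876467 to 103108872), which nucleates fibrils with type II collagen in cartilage and is widely expressed in tumours, was at 4.02, 3.32 and 4.30 CPM in AlgLung and 6.57, 7.04 and 7.20 CPM in S-AlgLung. The groups did not overlap, and replicates lay close together in both. The rise was 1.79-fold (log2 fold change 0.84, SE 0.25, edgeR adjusted p = 0.0453), just past the threshold. It was called in 6 of 14 other settings, among them without S-AlgLung replicate 3 (0.78, adjusted p = 0.0311). The call was lost without any of the other 5 libraries (adjusted p = 0.0857 to 0.193), with total-count scaling (0.245), upper-quartile factors (0.0673) and limma-voom (0.0524), and in these settings the log2 fold change stayed between 0.73 and 0.87.

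COL1A1, the main chain of type I collagen, was at 2.07 to 4.08 CPM and COL3A1, the chain of type III collagen, at 3.80 to 4.98 CPM over the 6 libraries. Both groups overlapped in each gene, with log2 fold changes of 0.37 (95% interval -0.23 to 0.97) and -0.14 (-0.67 to 0.38). COL11A2 was at 0.74 (-0.34 to 1.82), from 82 counts in all. The median over the 7 tested fibrillar chains was 0.37, with 4 above 0 and 3 below. It was 0.12 over the 6 with a mean of at least 1 CPM, 0.17 without S-AlgLung replicate 3 and 0.22 without AlgLung replicate 2.

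Among the chains of basement membranes, COL4A2 fell and the other 5 tested were not called. The 6 type IV genes lie in the genome as 3 pairs, each with its genes back to back on opposite strands, so that the members of a pair start from the same stretch of DNA. The products of COL4A1 and COL4A2 make the network found in nearly all basement membranes, those of COL4A3, COL4A4 and COL4A5 the network of kidney glomeruli and lung alveoli, and those of COL4A5 and COL4A6 a network of some epithelia and smooth muscle. The annotated starts lie 127 bases apart for COL4A1 and COL4A2, 419 for COL4A4 and COL4A3, and 380 for COL4A6 and COL4A5 (RefSeq, GRCh38.p14).

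Sequence from between the RefSeq starts of each pair is shown because the pairs differed in level. It covers up to 250 bases before the start of COL4A2, COL4A3 or COL4A5, less any base in an exon of the deposited table, so for the last pair the bases next to COL4A6 are not shown. It is given on the strand of COL4A2, COL4A3 or COL4A5, at chr13:110307158-110307257, chr2:227164454-227164623 and chrX:108439588-108439837 (RefSeq sequence). In the deposited annotation COL4A1 (to 110307157) and COL4A2 (from 110305812) overlap, so the COL4A1-COL4A2 stretch lies within the span of COL4A2, outside exons. Capitals mark matches, on either strand, to the GC box GGGCGG and the CCAAT box CCAAT.
COL4A1-COL4A2: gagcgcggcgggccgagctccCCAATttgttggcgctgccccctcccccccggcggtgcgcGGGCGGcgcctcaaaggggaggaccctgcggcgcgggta
COL4A4-COL4A3: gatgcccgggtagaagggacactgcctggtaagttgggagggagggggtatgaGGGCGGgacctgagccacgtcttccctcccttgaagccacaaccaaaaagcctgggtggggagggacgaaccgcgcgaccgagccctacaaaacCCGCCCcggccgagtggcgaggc
COL4A6-COL4A5: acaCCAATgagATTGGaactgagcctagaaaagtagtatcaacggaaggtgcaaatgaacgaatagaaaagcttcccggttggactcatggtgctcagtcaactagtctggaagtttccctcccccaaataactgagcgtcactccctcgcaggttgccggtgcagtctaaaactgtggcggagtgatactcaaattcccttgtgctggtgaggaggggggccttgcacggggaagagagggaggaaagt
The first held 1 GC box and 1 CCAAT box, the second 2 GC boxes and the third 2 CCAAT boxes. Of 35116 RefSeq starts, 31.3% held a GC box and 18.1% a CCAAT box in the last 100 bases before the start, 38.3% a GC box in the last 170, and 32.0% a CCAAT box in the last 250. The COL4A1-COL4A2 window ends at base 110307257, short of the COL4A2 start at 110307284. The shares for the last 100 bases therefore cover partly different positions from that window. Neither the TATA box TATAAA nor the AP-1 letters TGANTCA, searched on both strands, matched in these 3 windows. The GC content was 78.0%, 65.9% and 51.2%, against a median of 58.0% for all windows of 250 bases.

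The pairs were expressed at different levels. COL4A5 and COL4A6 had 12592 and 15241 counts in all 6 libraries, COL4A3 and COL4A4 had 2243 and 4408, and COL4A1 and COL4A2 had 29 and 399. Per kilobase of exon, COL4A5 exceeded COL4A2 by a ratio of 37.0 in AlgLung and 81.0 in S-AlgLung (geometric means, a pair picked after its values were seen). COL4A2 has the longest summed exon length of the type IV genes, 19271 bases against 11871 for COL4A5, which enters these ratios.

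COL4A2 (ENSG00000134871, chromosome 13, 110305812 to 110513209) was at 3.52, 4.67 and 3.60 CPM in AlgLung and 1.59, 1.77 and 1.38 CPM in S-AlgLung. Its groups did not overlap. It was 2.48-fold lower (log2 fold change -1.31, SE 0.30, edgeR adjusted p = 0.00605) and was called in 13 of 14 other settings, the exception being the fit without AlgLung replicate 2 (-1.18, adjusted p = 0.0616). COL4A1 was too low to test, with 6, 5 and 7 counts in AlgLung and 0, 5 and 6 in S-AlgLung.

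COL4A6 was at 122.8, 127.1 and 111.9 CPM in AlgLung and 84.0, 80.8 and 96.7 CPM in S-AlgLung. All S-AlgLung values lay below all AlgLung values, yet the difference of -0.47 was not called (95% interval -0.93 to -0.0033, adjusted p = 0.330). COL4A5 was at 104.3, 81.2 and 83.0 CPM in AlgLung and 68.7, 67.2 and 104.5 CPM in S-AlgLung, where replicate 3 alone was as high as the highest AlgLung library (-0.16, 95% interval -0.65 to 0.33). Without that library COL4A5 was at -0.43 (adjusted p = 0.222) and COL4A6 at -0.58 (0.0725).

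COL4A3 was at 14.4, 9.93 and 13.1 CPM in AlgLung and 18.1, 13.1 and 21.9 CPM in S-AlgLung, and COL4A4 at 36.6, 22.3 and 25.0 against 34.3, 27.9 and 33.1 CPM. In both genes the groups overlapped and AlgLung replicate 2 was lowest. Neither was called, with log2 fold changes of 0.50 (95% interval 0.03 to 0.98, adjusted p = 0.298) and 0.18 (-0.27 to 0.64, adjusted p = 0.803). COL4A3 shares 838 exon bases with MFF-DT on the other strand, which had 124.5% of its counts. No source used here says whether the counting used strand, so the reads of such overlapping genes cannot be told apart.

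COL18A1 (chromosome 21, 45405165 to 45513720) was at 349.3, 379.9 and 316.4 CPM in AlgLung and 561.4, 389.0 and 388.5 CPM in S-AlgLung. Every S-AlgLung library was above every AlgLung library, but replicate 1 stood well above the other S-AlgLung libraries, and the difference of 0.36 was not called (95% interval -0.17 to 0.88, adjusted p = 0.591). It shares 1563 exon bases with SLC19A1 on the other strand, which had 38.2% of its counts. COL15A1, the other basement membrane collagen of the same kind, had 2 counts. The median over the 6 tested basement membrane chains was 0.01, with 3 above 0 and 3 below.

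**Figure D4:**
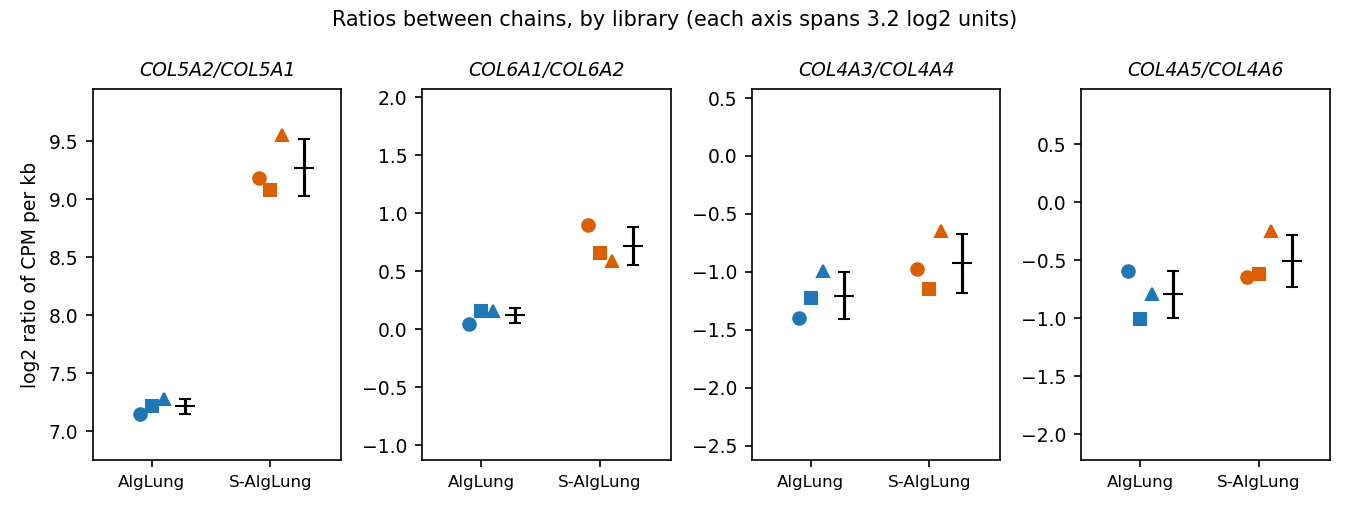
Log2 ratio of levels per kilobase of exon for 4 pairs of chains of the same collagen type, in the 3 AlgLung (blue) and 3 S-AlgLung (orange) libraries; black bars are mean ± SD, and each axis spans the same number of log2 units. COL5A2/COL5A1 and COL6A1/COL6A2 are higher in every S-AlgLung library, whereas the groups of both type IV pairs overlap.

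Among the other collagens, COL6A2 and COL21A1 fell and none rose. COL6A2 (ENSG00000142173, chromosome 21, 46098112 to 46132848) encodes a chain of type VI collagen, which forms beaded filaments near basement membranes and needs the products of COL6A1, COL6A2 and COL6A3 in its usual form. It was at 42.3, 38.7 and 41.1 CPM in AlgLung and 22.8, 20.8 and 18.5 CPM in S-AlgLung, so each S-AlgLung library was well below the lowest AlgLung library. The difference was 1.97-fold (log2 fold change -0.98, SE 0.21, edgeR adjusted p = 0.00308), called in each of 14 other settings at -1.09 to -0.94.

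COL6A1 (chromosome 21, 45981770 to 46005050), its neighbour on the same strand, was at 45.3, 44.8 and 47.8 CPM in AlgLung and 44.2, 34.1 and 28.9 CPM in S-AlgLung. The AlgLung libraries were all above the S-AlgLung libraries, narrowly so for S-AlgLung replicate 1, and the difference was -0.36 (95% interval -0.81 to 0.08, adjusted p = 0.480). The log2 ratio of COL6A1 to COL6A2 per kilobase was 0.04, 0.16 and 0.16 in AlgLung and 0.90, 0.66 and 0.59 in S-AlgLung. The chains were thus near parity in AlgLung, at a ratio of 1.09, and at a ratio of 1.64 in S-AlgLung (geometric means), with no overlap and no test made. For COL4A3 to COL4A4 the ratio was 0.434 and 0.527, and for COL4A5 to COL4A6 it was 0.577 and 0.706 (pairs picked after their values were seen), with overlapping groups for the first and S-AlgLung replicates 1 and 2 within the AlgLung range for the second.

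The 250 bases before the RefSeq starts of COL5A1 (chr9:134641553-134641802) and COL6A2 (chr21:46097862-46098111) are shown because these chains fell while their partners COL5A2 and COL6A1 were not called. Both are on the plus strand of GRCh38.p14, and capitals mark GGGCGG and TATAAA on either strand.
COL5A1: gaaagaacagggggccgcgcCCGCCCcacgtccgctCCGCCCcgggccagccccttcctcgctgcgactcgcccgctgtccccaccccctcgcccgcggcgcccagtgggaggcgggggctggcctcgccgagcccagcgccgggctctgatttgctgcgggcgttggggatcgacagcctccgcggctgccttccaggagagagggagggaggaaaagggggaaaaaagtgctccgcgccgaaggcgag
COL6A2: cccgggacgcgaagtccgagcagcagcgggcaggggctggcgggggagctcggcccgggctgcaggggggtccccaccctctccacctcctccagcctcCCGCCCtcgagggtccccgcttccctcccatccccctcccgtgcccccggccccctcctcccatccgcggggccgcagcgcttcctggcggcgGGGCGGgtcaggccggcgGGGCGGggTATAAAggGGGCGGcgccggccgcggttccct
COL5A1 had 2 GC boxes and no TATA box, and COL6A2 had 4 GC boxes and 1 TATA box. Of all 35116 windows of this length, 42.6% held a GC box and 10.7% a TATA box. Neither window held CCAAT, found in 32.0%, or TGANTCA, found in 6.6%. The sequences before COL5A2 and COL6A1 were not examined, so these matches do not set the chains apart from their partners.

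COL21A1 (ENSG00000124749, chromosome 6, 56056590 to 56394094), one of the collagens that bind to fibrils without forming them, was at 5.78, 4.04 and 5.00 CPM in AlgLung and 2.17, 2.11 and 2.27 CPM in S-AlgLung. The S-AlgLung values were close together and below all AlgLung values. It was 2.26-fold lower (log2 fold change -1.18, SE 0.28, edgeR adjusted p = 0.00829), called in each of 14 other settings at -1.30 to -1.10. Of the same kind, COL12A1 was at 2.38 to 4.67 CPM (-0.54, 95% interval -1.14 to 0.06) and COL16A1 at 2.53 to 3.87 CPM (0.23, -0.35 to 0.81), both with overlapping groups. COL16A1 shares 117 exon bases with PEF1-AS1 on the other strand, which had 187.7% of its counts. COL9A2, under 1 CPM throughout, was at 1.11 (-0.04 to 2.26) from 52 counts.

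COL7A1 forms the anchoring fibrils that tie epithelial basement membranes to the stroma. It was at 70.5, 62.0 and 49.5 CPM in AlgLung and 105.6, 67.3 and 103.6 CPM in S-AlgLung, with S-AlgLung replicate 2 inside the AlgLung range. The difference of 0.60 was not called (95% interval 0.11 to 1.09, adjusted p = 0.192). COL17A1, a membrane-spanning collagen of hemidesmosomes, was at 11.0, 9.25 and 10.6 CPM in AlgLung and 6.52, 8.10 and 7.06 CPM in S-AlgLung. Its groups did not overlap, and the difference of -0.51 was not called (-0.98 to -0.04, adjusted p = 0.274).

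COL28A1, a chain of a beaded-filament type, was at 1.30, 1.17 and 1.36 CPM in AlgLung and 2.49, 2.19 and 2.13 CPM in S-AlgLung. The groups did not overlap, yet the difference of 0.82 was not called (95% interval 0.15 to 1.49, adjusted p = 0.192). COL26A1 was at 0.41 (-0.41 to 1.23) with overlapping groups. The median over the 10 other chains tested was -0.07, with 5 above 0 and 5 below. It was -0.36 over the 9 with a mean of at least 1 CPM and -0.45 over 20 with no low-count filter. In all, 17 tested chains were not called, and the unadjusted interval of 5 of these (COL7A1, COL28A1, COL4A3, COL4A6 and COL17A1) did not include 0, so a difference in them is not excluded by a missed call.

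Genes that modify, secrete, process, bind or degrade collagen were read from the same fit. Of 71 such genes 54 were tested, of which 5 rose and 3 fell, against 3.15% and 1.99% of all tested genes. The median log2 fold change over the 54 was 0.18, against 0.03 over all tested genes, and the small lists below are read against the same shares. Chains are hydroxylated and glycosylated in the endoplasmic reticulum: of 15 such enzyme genes, 14 were tested and 1 rose, P3H3, a prolyl 3-hydroxylase family member. It was at 69.0, 90.2 and 70.8 CPM in AlgLung and 160.5, 132.5 and 108.9 CPM in S-AlgLung, without overlap (log2 fold change 0.81, edgeR adjusted p = 0.0435). This call was lost in 7 other settings, among them without each library except S-AlgLung replicate 3 (adjusted p = 0.0741 to 0.429). P3H3 shares 114 exon bases with GPR162 on the same strand, which had 14.4% of its counts. Of the 10 genes of folding and secretion, 0 were called by edgeR, DESeq2 or limma-voom, and a missed call does not exclude a difference in them. The procollagen chaperone gene SERPINH1 was at -0.55 (137.2 ± 18.0 and 93.5 ± 1.81 CPM, adjusted p = 0.223), and CREB3L1, a factor that drives procollagen genes, was at 0.74 (273.5 ± 48.6 and 456.6 ± 206.9 CPM, adjusted p = 0.206).

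Outside the cell, procollagen is trimmed and cross-linked. Of 14 such genes 9 were tested, of which PCOLCE rose and LOXL2 fell. PCOLCE, an enhancer of procollagen trimming, was at 3.71, 5.39 and 4.96 CPM in AlgLung and 12.7, 10.7 and 7.88 CPM in S-AlgLung (log2 fold change 1.15, edgeR adjusted p = 0.00399), a call lost without AlgLung replicate 1 (0.0619). LOXL2, a cross-linking oxidase, was at 76.8, 85.9 and 91.4 CPM in AlgLung and 35.6, 47.3 and 26.0 CPM in S-AlgLung (-1.22, adjusted p = 0.00124). Neither gene's groups overlapped. PCOLCE overlaps an antisense gene with 27.0% of its counts, and LOXL2 shares exons with ENTPD4 on the same strand, which had 104.7% of its counts.

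Collagen receptors changed in both directions. Of 11 receptor genes 8 were tested, of which 2 rose and 1 fell, all of them integrin alpha chains that pair with ITGB1. ITGA10, of a cartilage collagen receptor, was at 3.33, 7.32 and 5.79 CPM in AlgLung and 21.6, 17.7 and 15.8 CPM in S-AlgLung, a 3.35-fold rise (log2 fold change 1.75, SE 0.26, edgeR adjusted p = 4.513e-05). ITGA11, of a fibroblast receptor for fibrillar collagen, was at 26.3, 29.1 and 32.1 CPM and at 57.8, 49.5 and 50.4 CPM (0.85, adjusted p = 0.0126). ITGA2, of the main epithelial collagen receptor, was at 88.6, 55.3 and 74.7 CPM in AlgLung and 45.3, 38.1 and 34.4 CPM in S-AlgLung (-0.89, adjusted p = 0.0171). In none of these did the groups overlap. ITGB1 itself was at 1260.5, 837.6 and 1054.1 CPM in AlgLung and 695.3, 708.3 and 653.7 CPM in S-AlgLung. Its S-AlgLung values all lay below its AlgLung values, yet the difference was not called (log2 fold change -0.62, edgeR adjusted p = 0.246). A missed call does not exclude a difference in ITGB1. The ITGA11 call was lost with total-count scaling (0.0643) and without AlgLung replicates 1, 2 and 3 (0.143, 0.0721 and 0.101) or S-AlgLung replicate 1 (0.0656), and that of ITGA2 without AlgLung replicate 1 or 3 (0.123 and 0.0623).

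Of 9 genes of collagen breakdown 5 were tested: MMP2, a gelatinase that also cuts type IV collagen, fell and MMP14, a membrane collagenase that activates it, rose. MMP2 was at 11.8 ± 1.58 CPM in AlgLung and 2.11 ± 0.361 CPM in S-AlgLung (log2 fold change -2.49, edgeR adjusted p = 2.901e-07), and MMP14 at 2.15 ± 0.454 and 4.39 ± 0.596 CPM (1.03, adjusted p = 0.0306). MMP2 shares exon bases with an unnamed gene on the same strand that had 18.6% of its counts. The MMP14 call was lost in 5 other settings at the same threshold. Of 12 genes of matrix partners 8 were tested and 0 were called by edgeR, DESeq2 or limma-voom. NID1, a basement membrane linker, was at 0.67 (6.51 ± 0.483 and 10.3 ± 1.55 CPM, edgeR adjusted p = 0.111). The proteoglycan HSPG2 was at 0.59 (adjusted p = 0.323). A missed call does not exclude a difference in these partner genes. Over the 6 lists, 5 genes rose with all libraries, but 2 did with total-count scaling. The fit lacking AlgLung replicate 1 gave 1, those lacking AlgLung replicate 2 or 3 gave 2, as did that lacking S-AlgLung replicate 1, and that lacking S-AlgLung replicate 3 gave 8 (4.75% of all genes higher).

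**Figure D5:**
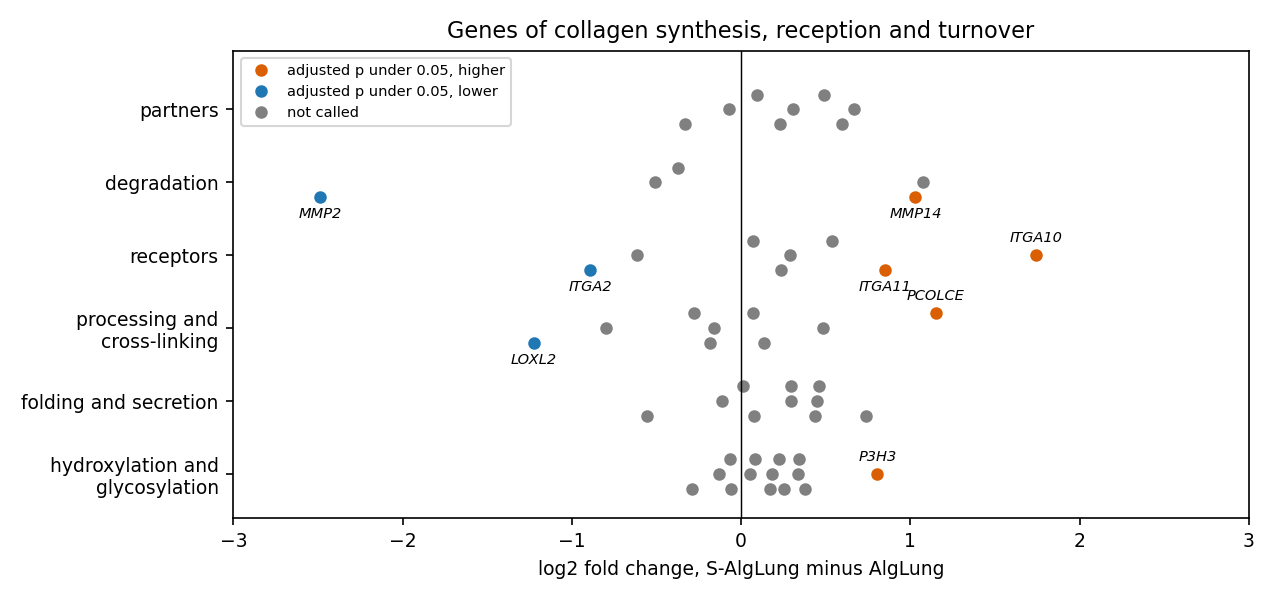
Log2 fold change (S-AlgLung minus AlgLung) of the 54 tested genes of collagen modification, secretion, processing, reception, degradation and matrix partnership, one row of points per list; orange marks called higher, blue called lower and grey not called, and points are shifted vertically for legibility. The 8 called genes are named, and no gene of folding and secretion or of the partner list is among them.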

How the data were processed

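Reads were aligned with STAR 2.7.3a to GRCh38 and counted per gene with featureCounts, per the submitters' processing notes; no source used here names the counter's version, annotation or strand setting. The authors deposited raw, unnormalized counts, 1 column of whole numbers per library. It also gives each gene's exon length. AlgLung replicate 1 had 2 columns with 0 differing genes and was counted as 1 sample. Symbols came from a gene name table (62625 of 62703 IDs matched).

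Genes passing filterByExpr (minimum count 10; 18544) were normalized by TMM and compared by quasi-likelihood testing (edgeR 4.0.16 run under R 4.3.3, no block), with Benjamini-Hochberg adjustment over all of them and a threshold of 0.05. Each standard error was derived from the fold change and its F statistic (ratio of the log2 value to the root of F). The biological coefficient of variation was 0.215. Named genes were every expressed chain and, of each pathway list, every called gene or else the 2 with the smallest p. ITGB1 was added as the partner of the called integrin chains. The members, classes and lists were chosen with earlier results of these data known. Alternatives were other scalings (DESeq2 size factors, total counts, upper quartile), the DESeq2 1.42.0 Wald test, limma-voom (limma 3.58.1), other low-count filters, a replicate block, each library left out and an adjusted p under 0.01. Promoter sequences were from RefSeq (GRCh38.p14), with an entry for 32 of the 44 chains. Precision is lowest for chains below 1 CPM.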

Additional observations from a re-analysis of the deposited data

How the results depend on the processing

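All 23 tested chains kept the direction of their fold change in every setting that gave them a value, and COL5A1, COL6A2 and COL21A1 kept their call in all of them. With total-count scaling, under which the log2 median over all genes shifted by -0.10, 333 genes, 0 chains and 2 pathway genes were called higher. There was 1 chain called higher with upper-quartile factors and with limma-voom. At an adjusted p under 0.01, 323 genes were higher and 217 lower, and 0 chains and 2 pathway genes were higher. With single libraries left out, genes called higher ran from 289 to 891 (584 with all) and lower from 244 to 662 (369 with all), chains called higher from 0 to 2, chains called lower from 3 to 4 and pathway genes called higher from 1 to 8. These fits have fewer samples.

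The median of the basement membrane chains was near 0 and changed sign: it was -0.0060 with DESeq2 size factors, -0.084 with total counts, -0.014 with upper-quartile factors, -0.0059 with the DESeq2 Wald test, -0.0027 with no low-count filter and -0.16 to 0.11 with a library left out. That of the fibrillar chains was 0.12 with a mean of at least 1 CPM and 0.17 to 0.49 with a library left out. That of the other chains was -0.45 with no low-count filter and -0.36 with a mean of at least 1 CPM, and that of all chains -0.14 with a mean of at least 1 CPM and 0.028 to 0.17 with a library left out. These filters change which chains enter the median.

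The labels number replicates alike in both hydrogels, but same-numbered libraries correlated in their deviations at 0.07, 0.29 and 0.04, and AlgLung replicates 1 and 3 correlated best with another number, so the numbers were not taken as pairs. With the replicate block, 800 genes were higher and 500 lower, 2 chains were higher and 4 lower, and 6 pathway genes were higher and 3 lower. Chains under 1 CPM are limited by depth, with at most 82 counts over all libraries in those that were tested.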
